A study of Mus musculus with 10 samples.

Results

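The genes described here are 10 members of the Notch pathway measured in mouse femur: the receptors Notch1, Notch2, Notch3 and Notch4, the ligands Jag1, Jag2, Dll1 and Dll4, and the target genes Hes1 and Hey1. They were taken by name, or by the accession printed on the array, from 18955 genes tested, and 14 of the array's 41174 different gene probes belong to them. The samples were femurs of male ICR mice, an outbred stock, aged 6 months. Of these, 5 mice walked freely (control) and 5 had their hindlimbs lifted off the ground by tail suspension for 24 h (unloaded), so that the study asks what removing load from the hindlimb does to gene expression in bone. All mice had been caged singly and were assigned to a group at random. Total RNA of whole excised femurs was hybridised to 1-colour Agilent arrays, 1 array per animal, so the replicates are different animals. The labels' protocols name no step that removed marrow, and muscle, cartilage, blood and marrow markers were measured beside those of bone.

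Notch receptors are single-pass membrane proteins that are activated by ligands on a neighbouring cell. Ligand binding exposes the receptor to cleavage, and its intracellular part then enters the nucleus, joins the DNA-binding protein RBPJ and a Mastermind coactivator, and switches on genes such as Hes1 and Hey1, which encode repressors of transcription. In the skeleton the pathway is known for holding back the maturation of osteoblast precursors, for effects on osteoclasts and osteocytes, and for shaping the vessels of bone.

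Levels are given as log2 of the processed signal minus the 75th percentile of the same array, so that 0 stands for the signal that 75% of the gene probes lie below. A difference is the unloaded mean minus the control mean on this scale. The 75th percentile lay between 637 and 903 intensity units on the 10 arrays, and 89.8% to 95.5% of spots were above background, while the number of arrays limits the precision. The median correlation of an array with the others was 0.985 to 0.988, except for unloaded 5 at 0.973. The arrays came from 3 slides: slide 1 held controls 1 to 4, slide 2 held control 5 and unloaded 1 to 3, and slide 3 held unloaded 4 and 5. Only slide 2 therefore holds both groups, and between the other slides, slide and group cannot be told apart.

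No Notch member differed between unloaded and control femurs in limma's test: 0 of the 14 probes reached an adjusted p below 0.05, against 1 of 38629 probes (0.00259%) over the whole array, which was Ddit4, a stress-induced inhibitor of mTOR signalling. At an unadjusted p below 0.05, 2 of the 14 probes passed, beside 16.1% of all probes. With the brightest probe standing for each gene, 8 of the 10 members had a positive difference and 2 a negative one, while over all genes 60.4% lay above 0 and 39.6% below. Scaling each array to its median instead gave 6 members above 0 beside 41.8% of all genes. The 10 differences ran from -0.20 to 0.25 with a median of 0.12, and the median over all tested genes was 0.05. The ligands, with a median of 0.16, and the target genes, with a median of 0.20, had positive differences only with these probes, though the other Jag1 probe was negative, and the receptors had a median of -0.06, which was 0.09 on slide 2 alone. The sign of Dll1 turned under cyclic loess scaling, while those of Jag1, Jag2, Dll4, Hes1 and Hey1 were positive in every scaling tried, Jag1 by its brightest probe. The adjusted p of the 10 members in limma lay between 0.288 and 0.991.

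**Figure D1:**
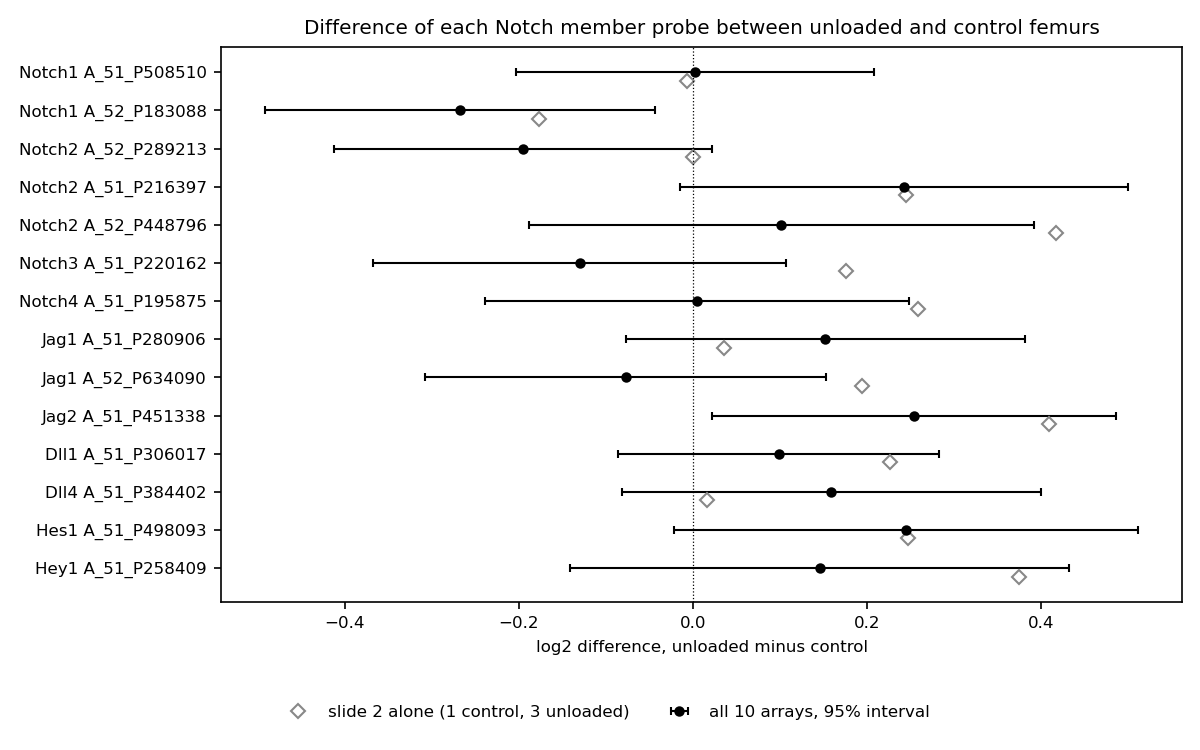
Each filled point is the log2 difference (unloaded minus control) of 1 member probe over all 10 arrays with its 95% confidence interval, and each open diamond is the same difference on slide 2 alone (1 control, 3 unloaded). The intervals of 12 of the 14 probes cover 0; those of Jag2 and of the Notch1 probe A_52_P183088 do not, before adjustment for the number of probes tested.

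Among the receptors, Notch1, which is widely expressed and best known from T cell development and vessels, was measured by a pair of probes that gave unlike answers. Its brighter probe, A_51_P508510, spotted 10 times on each array, read 0.22, 0.29, 0.03, 0.34 and 0.22 in controls 1 to 5 and 0.35, 0.06, 0.22, 0.16 and 0.32 in unloaded 1 to 5. The groups overlapped fully: both means were 0.22 ± 0.12 (SD, n = 5), and the 95% interval of the difference was -0.20 to 0.21 (limma adjusted p = 0.991). The dimmer probe, A_52_P183088, read -1.73, -1.41, -1.77, -1.64 and -1.64 in the controls and -1.79, -1.82, -1.85, -1.90 and -2.17 in the unloaded mice. All 5 unloaded values lay below all 5 controls, by a margin of -1.79 against -1.77 at the nearest pair. This was the 1 member probe of 14 without overlap, beside 3.16% of all probes tested, or 1.65% when only probes with the unloaded mice lower are counted. Its mean was -1.64 ± 0.14 in controls and -1.91 ± 0.15 in unloaded femurs (SD, n = 5), a difference of -0.27 (SE 0.10, 95% interval -0.49 to -0.04), or 1.20-fold lower. It had the smallest p of the member probes and did not pass limma's test (adjusted p = 0.271). On slide 2 alone its difference was -0.18. Processed signals of this probe were 154 to 339 intensity units, above background on every array.

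Notch2, the receptor whose truncating mutations cause a bone-loss syndrome in people, was measured by 3 probes. The brightest, A_52_P289213, read 1.56, 1.66, 1.46, 1.66 and 1.45 in the controls and 1.56, 1.49, 1.30, 1.30 and 1.15 in the unloaded mice. Unloaded 3, 4 and 5 lay below every control, and unloaded 1 and 2 lay within the control range. The means were 1.56 ± 0.10 and 1.36 ± 0.16 (SD, n = 5), and the difference of -0.20 (SE 0.10, 95% interval -0.41 to 0.02) did not pass limma's test (adjusted p = 0.341). On slide 2 alone the difference was 0.000423. The only control there, control 5, was the lowest control at 1.45, so this value cannot decide whether the lower mean is absent within a slide. The other Notch2 probes were dim and had positive differences, of which that of A_52_P448796 turned to -0.00525 with quantile, -0.013 with cyclic loess and -0.021 with normexp processing. A_51_P216397 read -2.65, -2.83, -3.03, -2.80 and -2.71 in controls against -2.38, -2.65, -2.36, -2.50 and -2.91 in unloaded femurs, a difference of 0.24 (SE 0.12; limma adjusted p = 0.327), or 0.12 after normexp, with 3 unloaded mice above every control. A_52_P448796 had means of -2.48 ± 0.29 and -2.38 ± 0.14 (SD, n = 5) and a difference of 0.10 (SE 0.14; limma adjusted p = 0.693).

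The promoter of Notch3 is shown with that of Jag2, the ligand described further on, because they are the receptor window with the most matches and the ligand window with the highest GC share among the member windows. Both are the 250 bases before the gene's start in RefSeq's table for GRCm38.p6, written 5′ to 3′ on the gene's own strand, which is the minus strand for each: chr17:32166891-32167140 for Notch3 and chr12:112929496-112929745 for Jag2. Capitals mark matches on either strand to CACNAG, the N-box that Hes proteins bind.
Notch3: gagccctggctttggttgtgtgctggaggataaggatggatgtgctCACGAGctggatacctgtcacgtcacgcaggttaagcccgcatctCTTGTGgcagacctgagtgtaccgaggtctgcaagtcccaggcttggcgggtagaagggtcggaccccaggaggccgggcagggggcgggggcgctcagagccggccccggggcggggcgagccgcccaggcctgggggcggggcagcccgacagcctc
Jag2: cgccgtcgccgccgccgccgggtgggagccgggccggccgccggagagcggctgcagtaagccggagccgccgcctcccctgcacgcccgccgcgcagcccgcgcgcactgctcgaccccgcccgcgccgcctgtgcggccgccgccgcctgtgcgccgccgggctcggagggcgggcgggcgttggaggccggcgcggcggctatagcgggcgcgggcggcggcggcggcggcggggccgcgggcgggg

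The table held 9 windows of 8 members, while Hes1 and Hey1 were not matched. The letters CACNAG, on either strand, occurred in 4 of the 9 windows (44.4%), beside 36.7% of all 32851 windows: Notch3 had 2 matches, beginning 204 and 159 bases before the start, and Notch1, Notch2 and Dll4 had 1 each. TGGGAA, the core that RBPJ binds, also searched on both strands, occurred in 0 of the 9 windows and in 21.6% of all windows. The Jag2 window was 87.2% G and C and the Notch3 window 68.8%, beside a median of 52.4% over all windows. These are matches of letters only.

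Notch3, the receptor of the smooth muscle cells and pericytes around vessels, read 0.72, 0.87, 0.79, 0.63 and 0.44 in the controls and 0.58, 0.84, 0.45, 0.45 and 0.49 in the unloaded mice. Control 5 was as low as the lowest unloaded mice, and unloaded 2 was among the highest values. The means were 0.69 ± 0.16 and 0.56 ± 0.16 (SD, n = 5), with a difference of -0.13 (SE 0.11, 95% interval -0.37 to 0.11; limma adjusted p = 0.527). On slide 2 alone the sign was turned, at 0.18. Notch4, a receptor mostly of endothelial cells, read 0.08, 0.06, -0.10, 0.04 and -0.14 in the controls and 0.13, 0.29, -0.05, -0.11 and -0.29 in the unloaded mice. Its means were both -0.01, and the unloaded values were spread more widely (SD 0.22 against 0.10, n = 5), with 2 above every control and 1 below. Its difference was 0.00513, and the interval of -0.24 to 0.25 leaves room for changes of that size in either direction (limma adjusted p = 0.983).

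**Figure D2:**
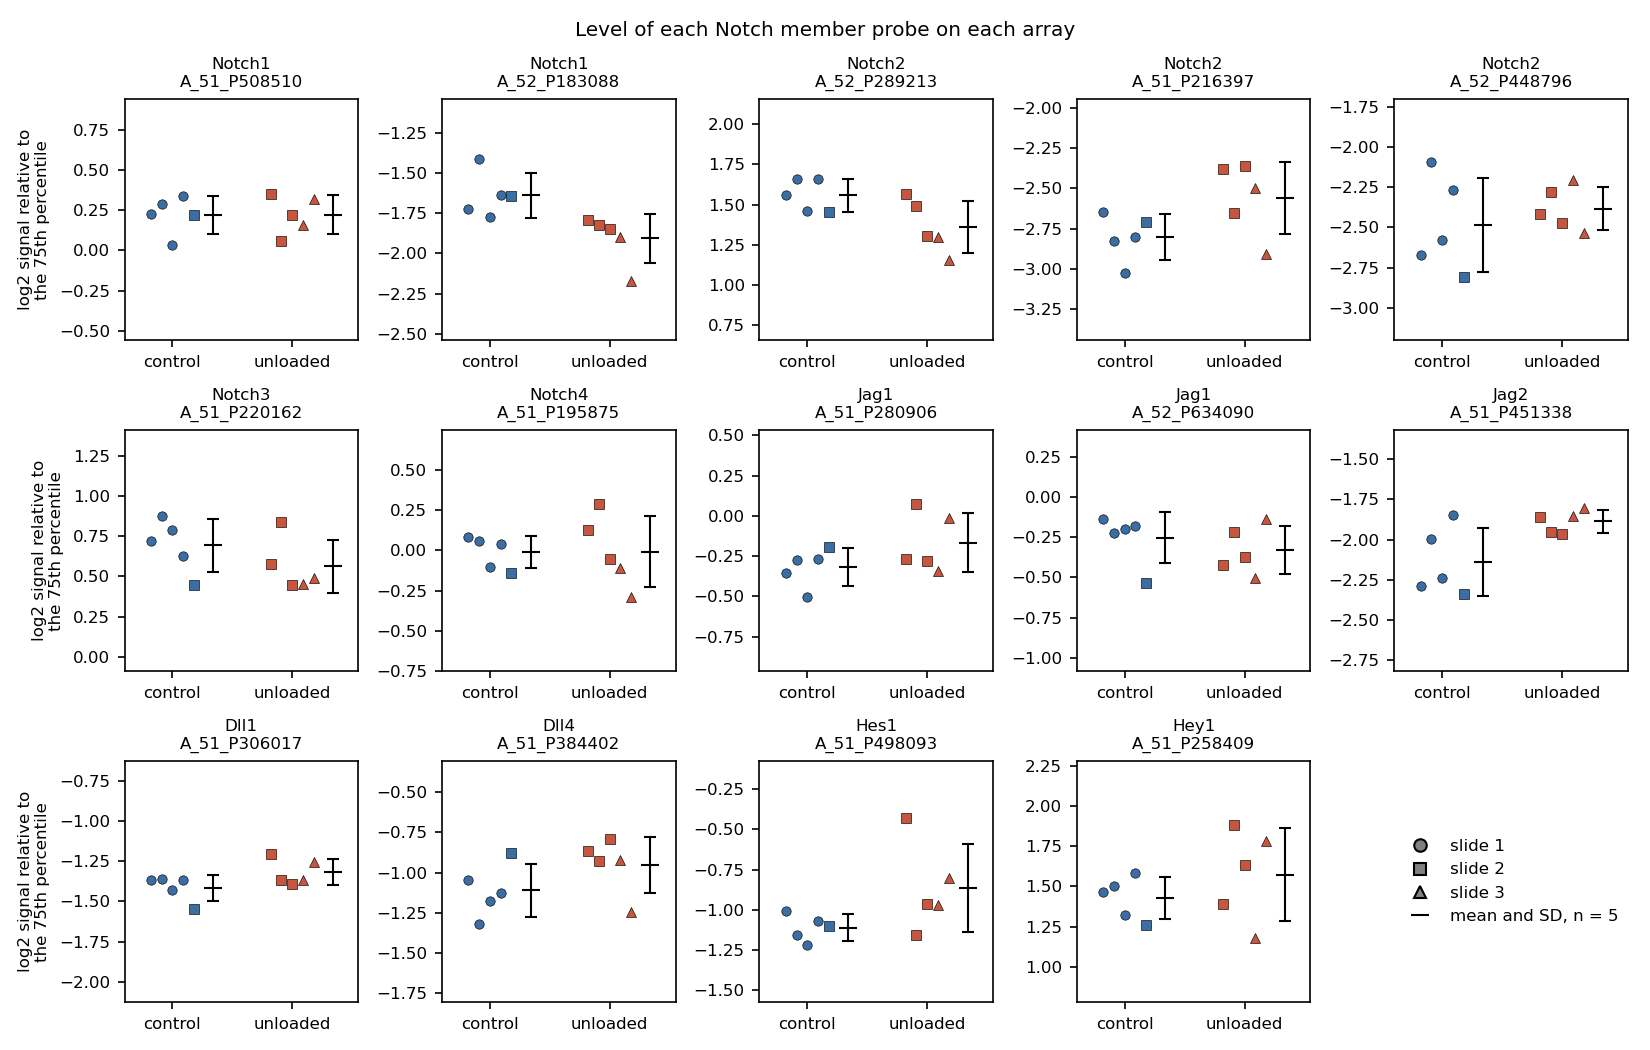
Each panel plots 1 member probe as log2 processed signal relative to the 75th percentile of its array, for 5 control (blue) and 5 unloaded (red) mice, with marker shapes for the 3 slides and a bar for mean and SD; every panel spans the same 1.5 log2 units. The groups overlap in every panel but that of the Notch1 probe A_52_P183088.

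Among the ligands, Jag2, a Serrate-type ligand known from limb and immune development, had the largest difference. It read -2.29, -2.0, -2.24, -1.85 and -2.34 in controls 1 to 5 and -1.86, -1.95, -1.97, -1.85 and -1.80 in unloaded 1 to 5. The 5 unloaded values lay close together at the upper end of the control range, controls 2 and 4 lay at or near them, and 1 unloaded mouse was above every control. The means were -2.14 ± 0.21 and -1.89 ± 0.07 (SD, n = 5), and the difference was 0.25 (SE 0.11, 95% interval 0.02 to 0.49), or 1.19-fold. It did not pass limma's test (unadjusted p = 0.034, adjusted p = 0.288), and on slide 2 alone the difference was 0.41. It was smaller, 0.14 to 0.17, with normexp, median, quantile or cyclic loess processing, with unadjusted limma p of 0.128 to 0.219. The genes whose levels followed Jag2 most closely over the 10 arrays were Rora (Pearson r = 0.92), Sez6 (r = 0.92) and Cypt2 (r = 0.91), as a description of arrays that share slide and scaling.

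Jag1 is the Serrate-type ligand mutated in Alagille syndrome and made by osteoblasts and endothelial cells among others. Its probes had opposite signs over all 10 arrays, so that the sign for the gene follows the probe that stands for it. On slide 2 alone both probes were positive, at 0.036 for A_51_P280906 and 0.19 for A_52_P634090. A_51_P280906 read -0.36, -0.27, -0.50, -0.27 and -0.19 in the controls and -0.26, 0.07, -0.28, -0.34 and -0.01 in the unloaded mice. Unloaded 2 and 5 lay above every control and the other 3 within the control range. Its difference was 0.15 (SE 0.11, 95% interval -0.08 to 0.38; limma adjusted p = 0.452). A_52_P634090 had means of -0.25 ± 0.16 and -0.33 ± 0.15 (SD, n = 5) and a difference of -0.08 (SE 0.11; limma adjusted p = 0.705), with control 5 its lowest value at -0.53. A_51_P280906 stands for the gene by its mean over all 10 arrays, while in the controls alone A_52_P634090 was the brighter.

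Dll1, a Delta-type ligand, was measured by a probe spotted 10 times on each array and read -1.37, -1.36, -1.43, -1.37 and -1.55 in the controls and -1.21, -1.37, -1.39, -1.37 and -1.25 in the unloaded mice. Unloaded 1 and 5 were above every control and the rest within their range. Its spread was the smallest in the controls together with Hes1 (SD 0.08, n = 5), and its difference of 0.10 (SE 0.09, 95% interval -0.09 to 0.28) did not pass limma's test (adjusted p = 0.537). Dll4, the Delta-type ligand of endothelial tip cells, read -1.05, -1.32, -1.18, -1.13 and -0.88 in the controls and -0.87, -0.93, -0.79, -0.92 and -1.25 in the unloaded mice. Here 4 unloaded mice lay at or above the second-highest control, control 5 lay among them, and unloaded 5 lay among the lower controls. The difference was 0.16 (SE 0.11, 95% interval -0.08 to 0.40; limma adjusted p = 0.453), 0.02 on slide 2 alone and 0.23 without unloaded 5.

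Of the target genes, Hes1, a repressor of the hairy and enhancer-of-split type, read -1.01, -1.16, -1.22, -1.07 and -1.10 in the controls and -0.43, -1.16, -0.97, -0.97 and -0.80 in the unloaded mice. All unloaded mice but unloaded 2 lay above every control, and unloaded 1 stood highest. The means were -1.11 ± 0.08 and -0.86 ± 0.27 (SD, n = 5), and the difference was 0.25 (SE 0.12, 95% interval -0.02 to 0.51), or 1.19-fold. On slide 2 alone it was 0.25, with unloaded 1 far above control 5, unloaded 3 nearer to it and unloaded 2 below it. The difference over all arrays did not pass limma's test (unadjusted p = 0.069, adjusted p = 0.334). Leaving out 1 array at a time moved it between 0.14 and 0.32, the lower value without unloaded 1 and the higher without unloaded 2, with limma adjusted p down to 0.149. Hey1, a related repressor expressed in vessels and osteoblast precursors, read 1.47, 1.51, 1.32, 1.58 and 1.26 in the controls and 1.39, 1.88, 1.63, 1.18 and 1.79 in the unloaded mice. The unloaded values reached both higher and lower than the controls, with 3 above every control and 1 below (SD 0.29 against 0.13, n = 5). Its difference was 0.15 (SE 0.13, 95% interval -0.14 to 0.43; limma adjusted p = 0.557), or 0.069 without unloaded 2, 0.25 without unloaded 4 and 0.051 with median scaling.

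Because probes of Notch1, Notch2 and Jag1 gave differences of unlike size or sign, the log2 ratio of each pair of probes was compared between groups, a choice made after the values were seen. The ratio's own level depends on how brightly each probe hybridises and carries no meaning here, while a difference between groups shows that the probes differed unequally. For the Notch2 probes A_52_P289213 over A_51_P216397 the ratio was 4.21, 4.49, 4.48, 4.46 and 4.16 in controls 1 to 5 and 3.94, 4.14, 3.67, 3.79 and 4.06 in unloaded 1 to 5. All 5 unloaded ratios lay below all 5 controls. The difference was -0.44 (exact permutation test over all 252 assignments, two-sided, p = 0.00794, the smallest it can give, 0.0397 adjusted over the 5 pairs). With 1 array left out it was -0.49 to -0.37, and the adjusted p was above 0.05, up to 0.0794, without control 1, 2, 3 or 4 or unloaded 1, 3 or 4. It was -0.32 after normexp background correction (exact permutation, adjusted p = 0.212), and -0.24 on slide 2 alone, where 1 control against 3 unloaded mice cannot give a p below 0.25. For the Notch1 probes A_51_P508510 over A_52_P183088 the ratio was 1.95, 1.70, 1.80, 1.98 and 1.86 in controls and 2.14, 1.88, 2.07, 2.06 and 2.49 in unloaded femurs. In this pair 4 unloaded ratios lay above every control, and the difference of 0.27 had an exact permutation p of 0.0238, or 0.0595 adjusted over the 5 pairs. The Jag1 pair differed by 0.23 (exact permutation p = 0.103, adjusted 0.129), with control 5 at 0.34 and the other controls between -0.30 and -0.05. The remaining Notch2 pairs differed by -0.30 and 0.14 (exact permutation, adjusted p = 0.0926 and 0.444). Levels of probes of the same gene showed no clear relation across the 10 arrays: Pearson r was 0.07 for Notch1 (permutation p = 0.857), -0.08, 0.26 and 0.10 for the Notch2 pairs (permutation p = 0.817, 0.471 and 0.775) and 0.11 for Jag1 (permutation p = 0.761). Spearman's rho was 0.19 for Notch1 (permutation p = 0.608), -0.08, 0.36 and 0.09 for Notch2 (permutation p = 0.840, 0.314 and 0.812) and -0.13 for Jag1 (permutation p = 0.733). All 5 Pearson p were 0.857 after adjustment over the pairs, and without the 2 arrays farthest from the median r was 0.02, -0.37, -0.05, 0.02 and -0.47 in the same order. Where each probe lies along its transcript was not used here.

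**Figure D3:**
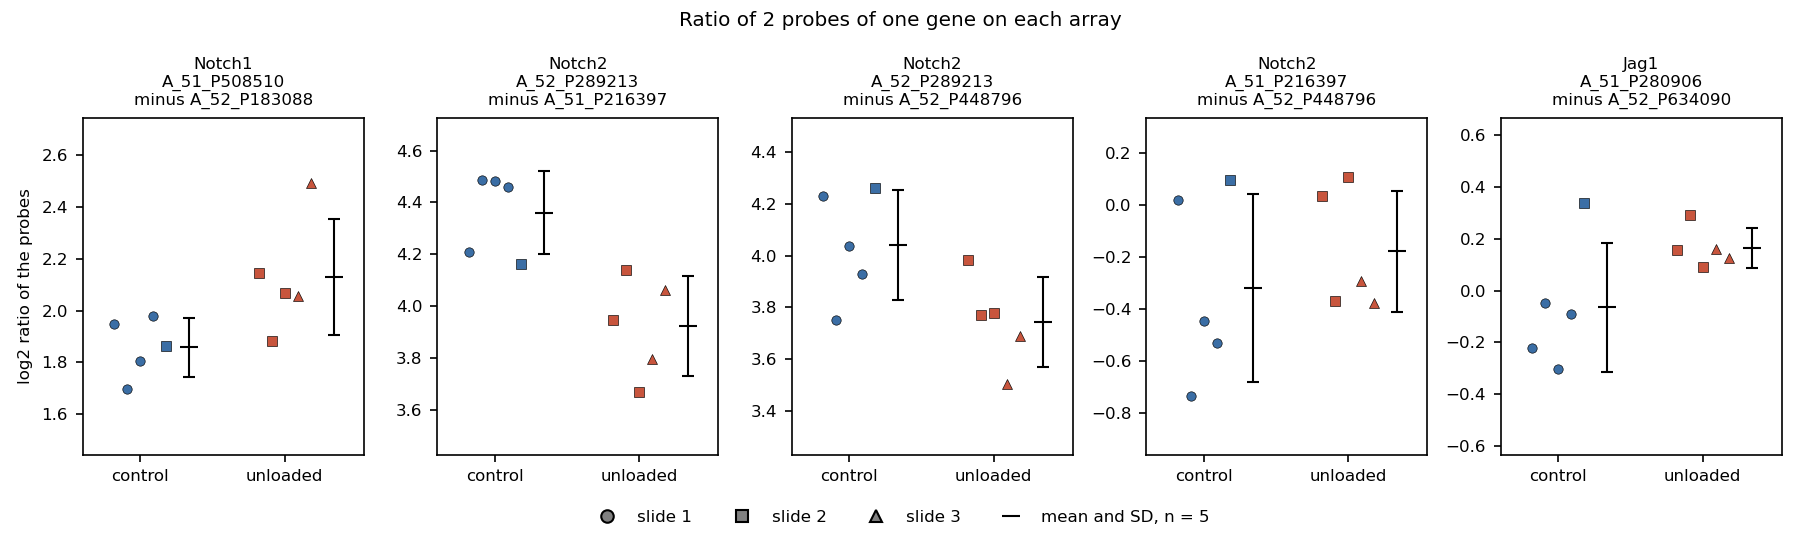
Each panel plots the log2 ratio of a pair of probes of the same gene on each array, for 5 control (blue) and 5 unloaded (red) mice, with marker shapes for the 3 slides and a bar for mean and SD. The groups do not overlap for the Notch2 pair A_52_P289213 and A_51_P216397 and overlap in the other 4 panels.

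The other genes of the pathway, a list of 64 that were all tested, also gave no call in limma. At an adjusted p below 0.05 there were 0, beside 0.00528% of all genes, and 7 had an unadjusted p below 0.05, beside 15.8% of all genes. Positive differences numbered 26 and negative ones 38, beside 60.4% positive over all genes, and the median was -0.03. With median scaling 19 were positive, beside 41.8% of all genes, and on slide 2 alone 36 were positive with a median of 0.02. In 0 of the 64 did the groups not overlap, beside 3.30% of all genes. Limma's adjusted p over the list ran from 0.262 to 1.00, and the genes named next are those with the smallest p in each role.

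The other ligands of Delta type or kin were positive in 4 of 4, with a median of 0.09, but in 2 of 4 with median, quantile or cyclic loess scaling, among them Dlk2 at 0.15 (SE 0.10) and Dll3 at 0.14 (SE 0.20), or 0.038 after normexp background correction. Of the 5 enzymes that add sugars to the receptor, 2 were positive and 3 negative, with Poglut1, which adds glucose, at -0.17 (SE 0.12) and Lfng, a fringe transferase that tunes which ligand acts, at 0.13 (SE 0.09). The ubiquitin ligases that drive ligand uptake split evenly, 2 to 2, with Neurl1b at -0.28 (SE 0.14) and Neurl1a at 0.14 (SE 0.13).

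Of the 10 genes for receptor cleavage, 4 were positive and 6 negative. Ncstn, the substrate-binding subunit of gamma-secretase, was at 0.29 (SE 0.13), or 0.078 after normexp background correction, and Furin, the protease that matures the receptor, at 0.22 (SE 0.10). Aph1a, another gamma-secretase subunit, named after its value was seen, was at -0.52 with an SE of 0.35 (limma adjusted p = 0.434). It was at -0.14 without unloaded 5 and at 0.046 on slide 2 alone. Among 8 nuclear activators, 3 were positive and 5 negative. The Mastermind coactivators Maml2 and Maml3 were at 0.30 (SE 0.11) and 0.31 (SE 0.12), with limma adjusted p of 0.262, which is the lowest of the list and which Fbxw7, described next, shares to this rounding. Rbpj itself, the DNA-binding partner of all 4 receptors, was at -0.32 ± 0.14 in controls and -0.32 ± 0.11 in unloaded femurs (SD, n = 5).

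The 9 corepressors, which keep target genes off without the receptor, were negative in 8 of 9, with a median of -0.09, and in 5 of 9 on slide 2 alone. Median scaling made 9 of 9 negative, where only 41.8% of all genes were positive. Quantile and cyclic loess scaling made 7 of 9 negative, beside 55.1% and 54.8% of all genes positive. Hdac1, a histone deacetylase, was at -0.22 (SE 0.10) and Tle3, of the Groucho family, at -0.19 (SE 0.11). The 10 genes of receptor turnover and inhibition divided 5 to 5, and Fbxw7 and Nedd4, ubiquitin ligases that mark the receptor for degradation, were at -0.27 (SE 0.10) and -0.27 (SE 0.14). The remaining Hes and Hey factors were positive in 3 of 7, with Hes7, the factor of the segmentation clock, at 0.22 (SE 0.10) and Heyl at 0.22 (SE 0.13). Other reported Notch targets were positive in 2 of 7 (5 of 7 on slide 2 alone), and these were Gata3 at 0.25 (SE 0.13) and Ptcra at 0.28 (SE 0.15), both known from T cells; after normexp background correction these were 0.15 and 0.03. Median scaling lowered every difference by the same amount, which left Dlk2 at 0.058, Lfng at 0.035 and Neurl1a at 0.041. The signs of Neurl1b, Aph1a, Tle3, Fbxw7 and Nedd4 were turned on slide 2 alone, where each was between 0.00164 and 0.18.

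**Figure D4:**
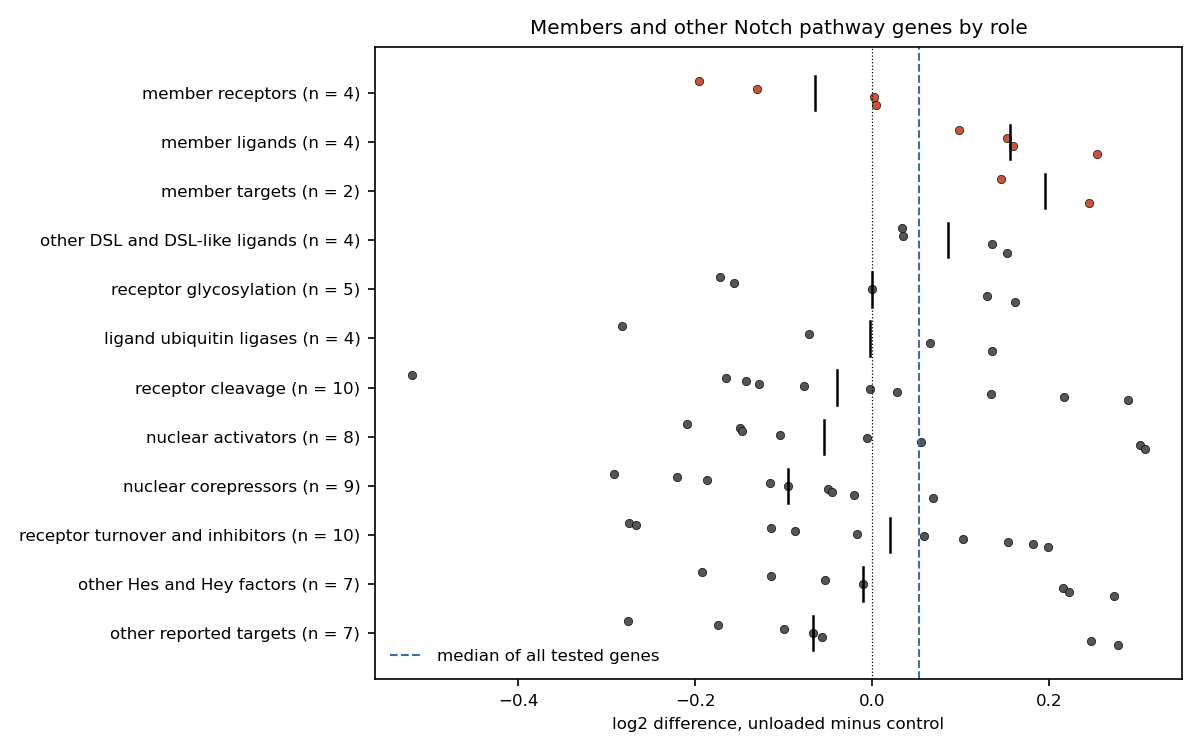
Each point is the log2 difference (unloaded minus control) of 1 gene, by role, for the 10 members (red) and the 64 other pathway genes (grey), with a bar at each role's median and a dashed line at the median of all tested genes. The member ligands and targets lie to the right of the dashed line, and 8 of 9 corepressors lie left of 0, beside 39.6% of all genes. Under other scalings, which shift all genes, 7 to 9 corepressors lie left of 0, and 5 on slide 2 alone. Of the 74 genes, 0 passed limma's test.

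Markers of 5 kinds of cell were set beside the members: endothelial, mural, osteoblast, cartilage and skeletal muscle. Lists of other cell types, such as osteocytes, osteoclasts and T cells, were also measured, and 0 of their markers passed limma's test. Groups did not overlap for 1 of 6 osteocyte markers (Mepe, 0.55), 1 of 7 neutrophil (Csf3r, -0.48) and 1 of 7 monocyte markers (Ccr2, -0.30), beside 3.30% of all genes. In whole bone, fewer cells of a type and less RNA per cell cannot be told apart. All 10 endothelial markers and all 9 mural (vessel wall) markers were above background on every array, and 0 of them passed limma's test. The log2 of the summed endothelial signals was 4.85 to 5.06 in controls and 4.60 to 5.10 in unloaded femurs, and that of the mural markers 4.97 to 5.22 and 5.08 to 5.34. Of the 10 endothelial markers 8 had a negative difference (median -0.10), and of the 9 mural markers 6 a positive one (median 0.02). The mean of the endothelial list differed by -0.10 over all arrays and by 0.07 on slide 2 alone, the opposite sign. That of the mural list differed by 0.04 over all arrays and by 0.15 on slide 2 alone. Of 9 osteoblast markers, Bglap had no value on unloaded 3 and was left out of sums and list means, a choice made after seeing the data. The other 8 were above background on every array, with a summed level of 8.94 to 9.14 in controls and 9.09 to 9.26 in unloaded femurs. Their list mean differed by 0.09 over all arrays and by 0.39 on slide 2 alone. The 9 cartilage markers were positive in 9 of 9 (median 0.30), with sums of 6.58 to 7.43 and 6.78 to 7.66, and the mean of their list differed by 0.84 on slide 2 alone. The 9 skeletal muscle markers were negative in 8 of 9 (median -0.25), with sums of 7.25 to 8.55 and 7.53 to 8.53, and their list mean differed by 0.25 on slide 2 alone, the opposite sign. All cartilage and muscle markers were above background on every array, 0 passed limma's test, and no marker of these 5 lists was at 0.

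Across the 10 arrays, 7 of 50 pairs of a member and a marker list had a Pearson p below 0.05, and 0 after adjustment over the 50 (smallest adjusted p 0.139). Notch3 had r = 0.77 with the endothelial list (permutation p = 0.00883; rho = 0.79, permutation p = 0.00896). Without the 2 arrays farthest from the list's median this was 0.79, and over deviations from each group's mean 0.72. Over the same deviations its r was 0.81 with the osteoblast and 0.80 with the cartilage list, so the endothelial list did not stand apart. Its r with the mural list was 0.34, or 0.70 without controls 1 and 4. With the osteoblast list r was 0.57 (permutation p = 0.0799), or 0.21 without control 5 and unloaded 2. Where Bglap was kept on the 9 arrays that measured it, r was 0.74 (permutation p = 0.00875). Bglap is bright, at 7.22 in controls beside 4.17 for the mean of the list without it. Its gap on unloaded 3 alone therefore lowers the list mean of that array, so 0.74 cannot be compared with 0.57. Notch2 and Notch4 had r = 0.74 (permutation p = 0.0145) and r = 0.73 (permutation p = 0.0166) with the endothelial list, with rho of 0.60 and 0.56. Without unloaded 2 and 5 these r were 0.66 and 0.18, and over deviations from group means 0.70 and 0.79. The value for Notch4 thus fell without those 2 arrays, which are the farthest from the list's median, and not over the deviations. Notch4 also had r = 0.74 with the cartilage list (permutation p = 0.0145; rho = 0.70), or 0.54 without control 5 and unloaded 2, and r = 0.76 with the osteoblast list (permutation p = 0.0143; rho = 0.79), or 0.62 without the same arrays. Hey1 had r = 0.76 with the osteoblast list (permutation p = 0.0105, rho = 0.70), or 0.52 without control 5 and unloaded 2. With Bglap kept its r was 0.50, a value affected by the same gap on unloaded 3. Jag2 had r = 0.68 with the mural list (permutation p = 0.0336, rho = 0.55), or 0.51 without controls 1 and 4. Over deviations from group means the highest r was that of Notch2 with the cartilage list, 0.83 (permutation, adjusted p = 0.0977), against 0.31 without this step. Dll4 with the endothelial list went from -0.12 to -0.92 without unloaded 2 and 5 (exact permutation, adjusted p = 0.0533). The part of these cell types in the members' differences was not tested.

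**Figure D5:**
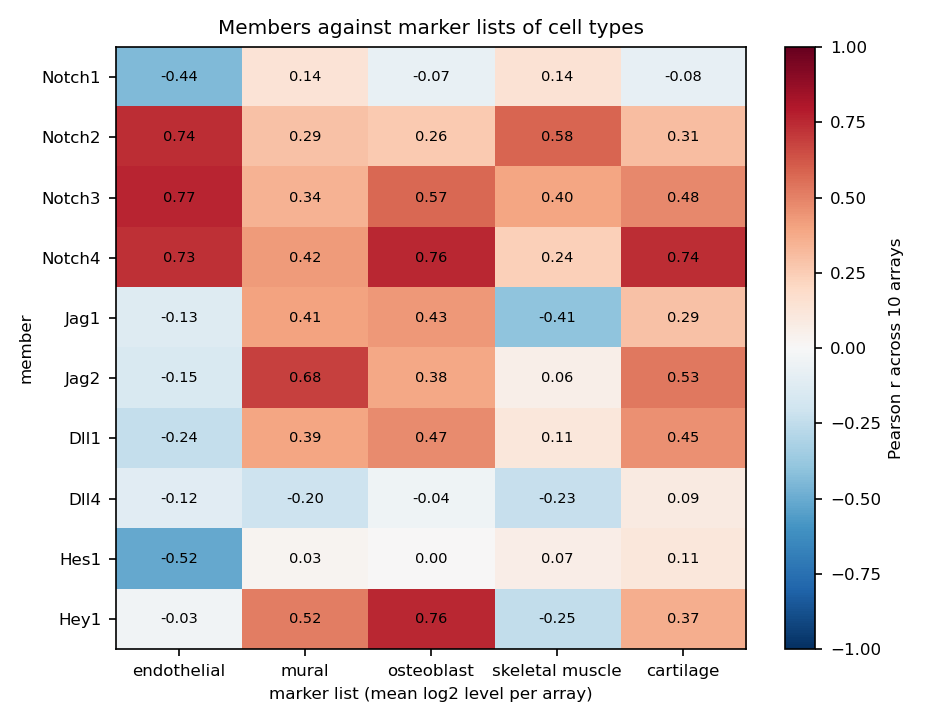
Each cell gives Pearson's r across the 10 arrays (5 control, 5 unloaded) between the log2 level of a member (brightest probe) and the mean log2 level of a marker list (osteoblast without Bglap), coloured from -1 (blue) to 1 (red). The highest values, 0.73 to 0.77, are those of Notch2, Notch3 and Notch4 with the endothelial list, Notch4 and Hey1 with the osteoblast list and Notch4 with the cartilage list, and 0 of the 50 pass after adjustment.

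Leaving out 1 array at a time moved Notch2 between -0.25 and -0.14, Notch3 between -0.20 and -0.085, Jag1 between 0.093 and 0.20, and Dll4 between 0.11 and 0.23. With median scaling Notch2 was at -0.29, Notch3 at -0.23, Jag1 at 0.057, Dll1 at 0.00378, Dll4 at 0.064 and Hes1 at 0.15. Without unloaded 5, the array that correlated least with the rest, 0 members passed limma's test and 7 of 10 differences were positive, between -0.14 for Notch2 and 0.23 for Jag2, Dll4 and Hes1. On the 4 arrays of slide 2, which hold 1 control, 9 of the 10 were positive with a median of 0.20, beside 48% of all genes. A test there has to assume that the single control varies like the unloaded mice, and control 5 enters every difference.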

How the data were processed

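The deposited files are Agilent Feature Extraction output (version 9.1.3.1, per the file headers), 1 array per femur; the authors' processed signal, an intensity already background-corrected per the file headers, was used. It was taken as log2 minus each array's 75th percentile over gene probes, after averaging spots of a probe (97 outlier-marked spots left out of all arrays, 0 saturated). The deposited value table matched these signals within ratios of 0.995 to 1.005, so its scale is linear, uncentred intensity; its column medians were 335, 332, 303, 261, 306 in controls 1 to 5 and 315, 269, 253, 311, 291 in unloaded 1 to 5. A probe was tested if well above background on at least 4 arrays of a group. The groups were tested in 1 model (lmFit and eBayes of limma 3.58.1, under R 4.3.3) and Benjamini-Hochberg adjustment over 38629 probes, of which 79 lacked a value on some array; the threshold was 0.05. On simulated data of 38550 probes with 200 changed, the fit recovered 85% of log2 changes of 1 and 100% of log2 changes of 2, with 15 false calls. The simulation held no smaller changes and no slide effect, so it gives no recovery rate for differences as small as those of the members. Of 41174 probes, 22951 were named by accession, 6659 by current name and 3109 by older name through a RefSeq table, and 8455 kept the file's name. The brightest tested probe stood for a gene, and all members were named; in each pathway role the 2 genes of smallest p, and for the member of smallest p the 3 genes of highest r. Correlations used 100000 resamples. The genome build of the array design is not given in the sources used here. The members and lists were chosen with earlier results of these data known. Same-numbered mice did not deviate together, so numbers were not used as pairs. Other scalings, background corrections, filters, slide and weight terms, and leaving out each array were tried.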

Additional observations from a re-analysis of the deposited data

Results flagged for a closer look

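Across the 14 member probes and both groups, 28 sets of 5 values were searched for a lowest or highest value far from the rest, where chance alone marks about 1 in 20 sets, or 1.4 here, and 2 were found. The Notch1 probe A_52_P183088 had its lowest unloaded value in unloaded 5, at -2.17, with a gap to the next value of 0.713 of the group's range; this mouse's array also correlated least with the other arrays. The Jag1 probe A_52_P634090 had its lowest control value in control 5, at -0.53, with a gap of 0.777 of the range; control 5 is the only control on slide 2.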

How the results depend on the processing

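The number past limma's threshold was 0 among the 10 members and 0 among all 64 other pathway genes under each of the 24 alternatives run, and also at an adjusted p below 0.10 with the values as reported. Of 240 member differences recomputed, 20 changed sign. Some alternatives could not turn a sign: the other filters, the trended and robust variance and the replicate block left each member's difference as it was. The deposited value table holds nearly the same signals. Slide as a fixed block gave the same differences as slide 2 alone, so these are not separate checks. The 75th percentile scaling put 62.6% of probes above 0, against 43.9% with median scaling, 52.7% with quantile and 52.0% with cyclic loess normalization, and members with a positive difference numbered 8, 6, 7 and 7. Differences near 0 turned. Notch1 was -0.093 with median scaling, -0.00729 with slide as a fixed block or slide 2 alone, and -0.051 with body weight as a covariate. It was -0.13 as the mean of its probes, and -0.045 to 0.043 when 1 array was left out. Notch4 was -0.090 with median scaling, -0.011 with quantile normalization and -0.069 to 0.076 with 1 array left out. With slide as a fixed block or slide 2 alone, Notch2 was 0.000423, Notch3 0.18, Neurl1b 0.038, Tle3 0.00164, Fbxw7 0.00585 and Nedd4 0.18. Slide as a random block, which still uses differences between slides, left Notch1, Notch2 and Notch3 with their signs, at 0.00223, -0.20 and -0.14. The correlation of arrays of a slide in that fit was -0.031. Aph1a was at 0.046 on slide 2 alone. The mean of all probes gave Notch2 0.050 and Maml2 -0.00817, cyclic loess gave Dll1 -0.00436, and body weight gave Dll3 -0.00397. The cause of these turns was not tested. The signs of Jag1 (probe A_51_P280906), Jag2, Dll4, Hes1 and Hey1 held in all alternatives, though some of these could not turn them. Their differences were 0.04 to 0.20, 0.14 to 0.41, 0.02 to 0.23, 0.14 to 0.32 and 0.05 to 0.38 in that order.

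With the replicate block, the number of members past the threshold was 0 and the lowest adjusted p was 0.300 (limma), for Jag2 at 0.25; the block changed no call. The correlation of deviations between same-numbered mice was -0.14 to 0.18, over 0.1 for 1 of 5 numbers, and 1 of 5 correlated best with its own number, so the mice share only a number.

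The comparison of probe pairs and its alternatives were added after seeing the data. For the Notch2 pair A_52_P289213 and A_51_P216397 the difference was -0.32 after normexp background correction (exact permutation, adjusted p = 0.212), -0.24 on slide 2 alone (where no exact p below 0.25 is possible), and -0.49 to -0.37 with 1 array left out (exact permutation, adjusted p = 0.0198 to 0.0794). On slide 2 alone the Notch2 pair A_51_P216397 and A_52_P448796 was at -0.17 and the Jag1 pair at -0.16. The 95% intervals printed are not adjusted for the number of probes, so the size needed for a call is larger than they show.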
